A study of Rattus norvegicus with 132 samples.

Results

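Mt1 and Mt2 encode metallothioneins, and their signal was followed here in rat kidneys after RM-HS, RM, HS or Sham. Both genes were chosen by symbol from the deposited table, with earlier results of these data known, so that their places among all genes below are descriptions. They are 2 of the 9271 genes of the table, and both are among the 8827 genes tested. Metallothioneins are small cysteine-rich proteins that bind zinc, copper and cadmium in metal-thiolate clusters. They buffer zinc, give it up under oxidative stress and can scavenge radicals. Their genes are switched on by the zinc sensor MTF-1, which binds metal response elements in their promoters, and also by glucocorticoids and, in liver, by interleukin 6 through STAT3. In kidney they are best known from the proximal tubule, where metallothionein-bound cadmium accumulates, and from their induction by toxic and ischaemic injury.

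Kidney sections were fixed in formalin, embedded in paraffin and hybridised with mouse probes of the GeoMx profiler that cover the whole transcriptome, in which barcodes are released by light from a region of interest (ROI) drawn by hand and are then sequenced. The groups were RM-HS (32 ROIs), RM (35), HS (29) and Sham (36), each from 3 rats per the labels, and the areas were cortex (C), corticomedullary junction (CMJ), glomeruli (G) and medulla (M). No label spells out RM or HS. The series concerns kidney injury after trauma, a field where RM is commonly short for rhabdomyolysis, in which skeletal muscle breaks down, and HS for hemorrhagic shock, and RM-HS is the group that carries both letters. Strain, sex, age and the time between injury and sampling are not given in the sources used here. ROIs are not tied to animals by the labels, and a group with 9 ROIs in an area drew them from 3 rats, so that every p-value below that rests on ROIs is too small. Values are normalized signal, with every ROI brought by the authors to the same upper quartile of 58.2, so that a difference says how a transcript stands within its ROI, and fewer cells of a type and less RNA per cell cannot be told apart.

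The rat genes lie next to each other. In the RefSeq annotation of build GRCr8, Mt1 spans chr19:10831959-10832975 (1017 bases) and Mt2, annotated in rat as Mt2A, spans chr19:10837934-10838708 (775 bases), both on the minus strand with 4958 bases between them. Mt2 was matched through a synonym, taking the match on the chromosome of Mt1. The 250 bases before the annotated start of each gene are printed because metal response elements there are the textbook route to these genes. They lie at chr19:10832976-10833225 for Mt1 and chr19:10838709-10838958 for Mt2, minus strand, and are written 5′ to 3′ along the gene. Capitals mark every match to the core of the metal response element, searched as TGCACNC or TGCGCNC on both strands.
Mt1: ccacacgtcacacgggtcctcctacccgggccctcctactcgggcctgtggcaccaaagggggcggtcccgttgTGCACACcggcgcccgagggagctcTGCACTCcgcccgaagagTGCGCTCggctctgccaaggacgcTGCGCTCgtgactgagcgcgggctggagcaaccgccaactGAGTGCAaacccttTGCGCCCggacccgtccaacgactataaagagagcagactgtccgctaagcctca
Mt2: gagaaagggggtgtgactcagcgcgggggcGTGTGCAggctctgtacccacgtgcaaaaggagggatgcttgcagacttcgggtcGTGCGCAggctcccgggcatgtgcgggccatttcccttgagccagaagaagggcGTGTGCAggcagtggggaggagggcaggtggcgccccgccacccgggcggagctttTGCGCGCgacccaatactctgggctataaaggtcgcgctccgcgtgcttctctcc

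The Mt1 window held 6 such cores, at 176, 151, 133, 109, 69 and 55 bases before the start, of which the core at 69 reads on the opposite strand. The Mt2 window held 4, at 220, 165, 111 and 55 bases before the start, and the first 3 of these read on the opposite strand. No matched core overlapped another core. Of 33469 RefSeq windows of the same length, 20.6% held at least 1 core, 0.266% held at least 4 and 0.0269% held at least 6. The letters G and C make up 66.4% of the Mt1 window and 66% of the Mt2 window. The shares given here and below are over all windows, which were not matched for this content. Both windows also held a TATAAA (at 32 bases in Mt1 and 31 in Mt2, against 12.9% of all windows with at least 1), a GC box GGGCGG (2 in Mt1 and 1 in Mt2, against 30.5%) and 1 antioxidant response element core TGACNNNGC (at 101 in Mt1 and 237 in Mt2, against 10.1%). The Mt2 window held the E-box CACGTG (5.59% of all windows), which the Mt1 window did not. Neither window matched the glucocorticoid receptor motif AGAACA (17.5% of all windows) or the STAT motif TTCNNNGAA (7.67%), which says only that these letters are not in these 250 bases. In Mt1, the core at 151 and the GC box at 145 share a base. Each motif was searched on both strands, and a match is a description of the letters, not of a bound site.

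Recovered reads ranged from 17894 to 2305964 per ROI, and the shallowest ROIs were glomerular. Mt2 lay at least 8.22 times above the negative probe, the measure of background, in all 132 ROIs, and Mt1 lay over 2 times above it in 131. The remaining ROI was a Sham glomerulus in which Mt1 rested on 2 reads. All HS ROIs and 12 Sham ROIs were on plate E, and all RM-HS ROIs, 34 RM ROIs and the other 24 Sham ROIs were on plate C. The area labels were checked in Sham: 4 of 5 podocyte markers tested were higher in glomeruli than in cortex and 1 was lower, 3 of 3 straight proximal tubule markers were higher at the junction than in cortex, and 3 of 3 thick ascending limb markers were higher in medulla than in cortex. The mouse probes for Mt1 and Mt2 target closely related sequences, and whether either probe also binds the transcript of the other gene in rat was not tested.

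In Sham kidneys both metallothionein transcripts were highest in medulla and lowest in glomeruli. Mt2 had a lowest, median and highest signal of 846, 1075 and 2316 in Sham medulla, 528, 616 and 664 at the junction, 243, 414 and 816 in cortex and 204, 268 and 407 in glomeruli (9 ROIs each). Mt1 had 298, 316 and 349 in Sham medulla, 184, 226 and 263 at the junction, 165, 221 and 348 in cortex and 58.2, 145 and 233 in glomeruli. Every medullary ROI of Sham thus lay above every junctional and glomerular ROI for both genes and, for Mt2, above every cortical ROI. In the limma fit across all genes, medulla exceeded cortex by a log2 difference of 1.48 ± 0.18 (SE) for Mt2 and 0.57 ± 0.14 for Mt1 (adjusted p = 2.16e-11 and 0.00192). That comparison called 11.7% of all genes tested, where called means an adjusted p under 0.05.

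Medulla exceeded the junction by 0.99 ± 0.18 for Mt2 and 0.52 ± 0.14 for Mt1 (adjusted p = 5.14e-06 and 0.00593, with 10.7% of genes called), and it exceeded glomeruli by 2.08 ± 0.18 and 1.28 ± 0.14 (adjusted p = 8.49e-20 and 1.29e-13, with 30.6% called). Glomeruli lay below cortex by -0.61 ± 0.18 for Mt2 and -0.71 ± 0.14 for Mt1, and below the junction by -1.09 ± 0.18 and -0.77 ± 0.14. Those glomerular comparisons called 38.4% and 37.7% of all genes, so that being called there sets Mt1 and Mt2 little apart from other genes. Without Sham run 3, the only Sham run on plate E, the difference of glomeruli from cortex was -0.37 for Mt1 and -0.51 for Mt2 and was not called for either gene (adjusted p = 0.0774 and 0.0622). Junction and cortex were not called different (0.48 ± 0.18, adjusted p = 0.0879, for Mt2 and 0.06 ± 0.14, adjusted p = 0.881, for Mt1, with 7.91% of genes called), but without Sham run 3 the Mt2 difference was 0.75 and called (adjusted p = 0.0148). Without Sham run 2, Mt1 in medulla was not called against cortex (0.49, adjusted p = 0.0842) or against the junction (0.44, adjusted p = 0.144). Under quantile normalization the junction lay below cortex instead, with Mt1 called at -0.54 (adjusted p = 0.00156).

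RM-HS kidneys carried far more metallothionein signal than Sham kidneys in every area. In medulla, Mt2 had a lowest, median and highest signal of 7134, 7881 and 10081 in RM-HS ROIs, against 846, 1075 and 2316 in Sham ROIs. In glomeruli, Mt2 had 1241, 2464 and 3991 in RM-HS, against 204, 268 and 407 in Sham. At the junction it had 2221, 2923 and 4550 in RM-HS, against 528, 616 and 664 in Sham, and in cortex 1194, 1505 and 2344 in RM-HS, against 243, 414 and 816 in Sham. The groups did not overlap in any area. Mt1 showed the same separation at lower signal: its medullary ROIs held 1128, 1329 and 1546 in RM-HS, against 298, 316 and 349 in Sham. In cortex Mt1 held 394, 523 and 799 in RM-HS, against 165, 221 and 348 in Sham. At the junction it held 429, 526.2 and 743 in RM-HS, against 184, 226 and 263 in Sham, and in glomeruli 300.5, 349 and 516 in RM-HS, against 58.2, 145 and 233 in Sham.

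Averaged over the 4 areas, RM-HS exceeded Sham by a log2 difference of 2.63 ± 0.17 for Mt2, a 6.20-fold difference on the scale of signal plus 1 (adjusted p = 2.47e-28), and by 1.52 ± 0.14 for Mt1, a 2.86-fold difference (adjusted p = 2.62e-18). This comparison called 6.83% of all genes, and by size Mt2 stood at place 1 and Mt1 at place 17 of 8827. Within areas Mt2 rose by 3.14 ± 0.25 in glomeruli, 2.89 ± 0.23 in medulla, 2.49 ± 0.23 at the junction and 2.01 ± 0.23 in cortex. Mt1 rose by 2.05 ± 0.18 in medulla, 1.47 ± 0.20 in glomeruli, 1.32 ± 0.18 in cortex and 1.23 ± 0.19 at the junction. The highest adjusted p among these 8 values was 8.29e-08, and the comparisons called 6.62% of genes in glomeruli, 4.5% in medulla, 6.15% at the junction and 3.78% in cortex. All 32 RM-HS ROIs lay above the highest Sham ROI of their area for both genes. Of the 8827 genes tested, 7 (0.0793%) had that property, Mt1 and Mt2 among them. The mean of each RM-HS well run also lay above each Sham run mean in all 4 areas for both genes. A well run is a stretch of neighbouring wells on a plate that passes through the areas of 1 group. In RM-HS run 3 the medullary wells are parted from the other wells by those of Sham run 1. Joining them to 1 run is an assumption, on which all run-based values of RM-HS run 3 rest.

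RM kidneys also held more of both transcripts than Sham kidneys in every area. Mt2 had a lowest, median and highest signal of 5180.0, 6352 and 8152 in RM medulla, against 846, 1075 and 2316 in Sham medulla. At the junction Mt2 had 2350, 3144 and 4373 in RM, against 528, 616 and 664 in Sham. In cortex it had 1098, 1702 and 2683 in RM, against 243, 414 and 816 in Sham, and in glomeruli 594, 1423 and 2046 in RM, against 204, 268 and 407 in Sham. As in RM-HS, no area showed an overlap with Sham. Mt1 had 806, 952 and 1003 in RM medulla, against 298, 316 and 349 in Sham. It had 619, 785 and 846 at the RM junction, against 184, 226 and 263 in Sham, and 445, 622 and 765 in RM cortex, against 165, 221 and 348 in Sham. In glomeruli Mt1 had 239, 275 and 363 in RM, against 58.2, 145 and 233 in Sham, the narrowest gap of the 4 areas.

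Averaged over areas, RM exceeded Sham by 2.41 ± 0.17 for Mt2 (5.33-fold, adjusted p = 1.62e-25) and by 1.47 ± 0.13 for Mt1 (2.77-fold, adjusted p = 1.06e-17), where 8.3% of all genes were called. By size Mt2 stood at place 2 and Mt1 at place 24. Within areas Mt2 rose by 2.55 ± 0.23 in medulla, 2.52 ± 0.23 at the junction, 2.46 ± 0.23 in glomeruli and 2.12 ± 0.23 in cortex. Mt1 rose by 1.74 ± 0.19 at the junction, 1.53 ± 0.18 in medulla, 1.48 ± 0.18 in cortex and 1.12 ± 0.19 in glomeruli. All 8 values were called (highest adjusted p 2.14e-06), with 5.96% of genes called in medulla, 5.64% at the junction, 12.8% in glomeruli and 5.49% in cortex. All 35 RM ROIs lay above the highest Sham ROI of their area for both genes, a property shared by 12 of 8827 genes (0.136%). Quantile normalization lowered several of the RM-HS and RM values by over 1.5 times, among them Mt1 averaged over areas in RM (0.91, adjusted p = 6.49e-12) and Mt1 at the junction in RM-HS (0.61, adjusted p = 0.00468), and all stayed called.

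**Figure D1:**
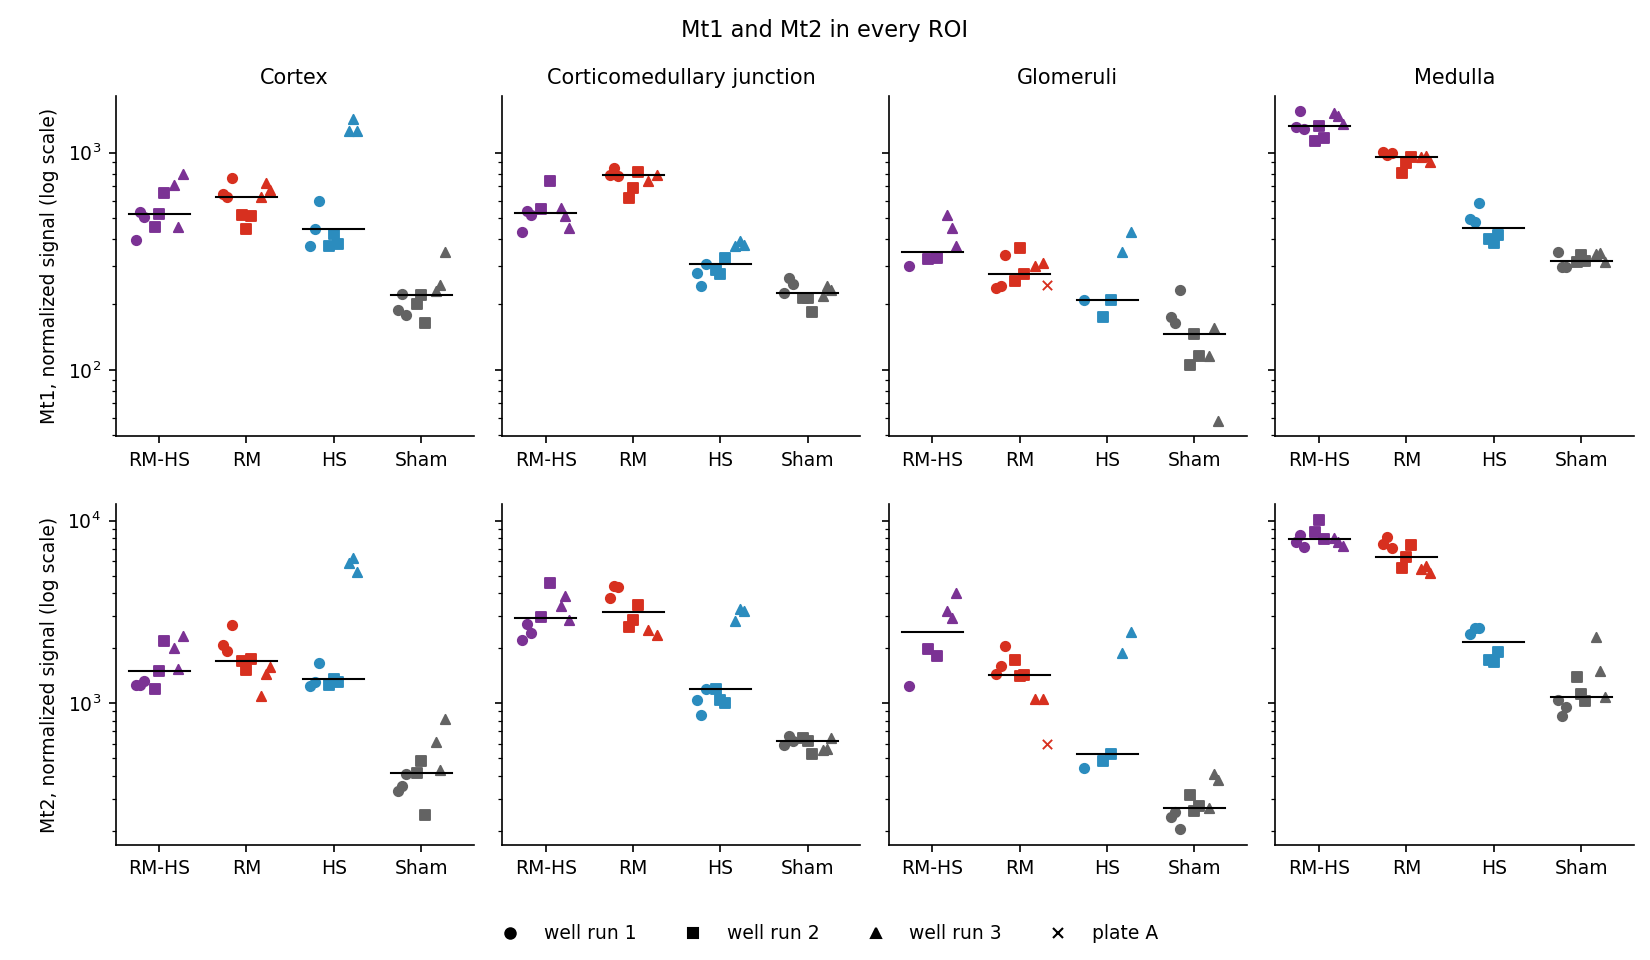
Normalized signal of Mt1 (top) and Mt2 (bottom) in every ROI by kidney area, on a log axis. Points are ROIs, symbols give the well run, the cross is the single ROI on plate A and black lines are group medians. All RM-HS and RM points lie above all Sham points of their area, while the HS points of run 3 lie apart from the other HS points in cortex and glomeruli.

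HS kidneys also held more metallothionein signal than Sham kidneys, by a less even margin. Outside cortex, though not in cortex, the margin was smaller than in RM-HS and RM. In cortex Mt2 had a lowest, median and highest signal of 1245, 1351 and 6239 in HS, against 243, 414 and 816 in Sham, with no overlap. At the junction it had 856, 1187 and 3294.1 in HS, against 528, 616 and 664 in Sham, again with no overlap. In medulla the 6 HS ROIs held 1679, 2151 and 2579, against 846, 1075 and 2316 in Sham, and 3 of the 6 lay above the highest Sham ROI. In the 5 HS glomeruli Mt2 was 442, 485, 523, 1880 and 2466, against a Sham range of 204 to 407. The HS glomeruli thus fall into a lower set of 3 and a higher set of 2, and the higher 2 are the ROIs of HS run 3. Mt1 had 370.1, 447 and 1423 in HS cortex, against 165, 221 and 348 in Sham. It had 243, 308 and 391 at the HS junction, against 184, 226 and 263 in Sham, and 385, 449 and 589 in HS medulla, against 298, 316 and 349 in Sham. In HS glomeruli Mt1 ranged over 174 to 430.4, against 58.2 to 233 in Sham, and 2 of 5 ROIs lay above the highest Sham ROI.

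Averaged over areas, HS exceeded Sham by 1.32 ± 0.22 for Mt2 (2.50-fold, adjusted p = 4.16e-05) and by 0.89 ± 0.17 for Mt1 (1.86-fold, adjusted p = 0.000967). Only 15 genes, 0.17% of those tested, were called in this comparison, and Mt2 stood at place 3 and Mt1 at place 9 by size. In cortex both genes rose, Mt2 by 2.07 ± 0.26 and Mt1 by 1.502 ± 0.21 (adjusted p = 9.94e-09 and 1.55e-07), and they stood at places 1 and 4 among all genes, of which 7 (0.0793%) were called. In glomeruli Mt2 rose by 1.30 ± 0.29 and Mt1 by 0.93 ± 0.23 (adjusted p = 0.00118 and 0.00373), where 9.52% of genes were called. At the junction Mt2 was called at 1.04 ± 0.26 (adjusted p = 0.0466) and Mt1 was not, at 0.47 ± 0.21 (adjusted p = 0.9997), with 0.283% of genes called. In medulla neither passed the test: Mt2 differed by 0.88 ± 0.28 and Mt1 by 0.67 ± 0.22 (adjusted p = 0.23 and 0.284, with 0.374% of genes called). All 29 HS ROIs lay above the mean of the Sham ROIs of their area for both genes, and 26 lay above the highest Sham ROI for Mt2 and 25 for Mt1. No gene of the 8827 (0%) had all its HS ROIs above the highest Sham ROI of their area.

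The calls against Sham in HS rested on few independent units. All HS ROIs were on plate E with 1 Sham run, and with that plate alone the average difference was 1.34 for Mt2 and 0.90 for Mt1 and was not called (adjusted p = 0.228 and 0.9998). With 1 mean per well run and area it was 1.28 and 0.88, again not called (adjusted p = 0.698 and 0.665) (with 1 mean per run and area, RM-HS and RM stayed called for both genes). Run 3 stood apart within HS. Its cortical ROIs held 5216 to 6239 of Mt2 and 1253 to 1423 of Mt1, against 1245 to 1659 and 370.1 to 596 in the cortical ROIs of HS runs 1 and 2. At the junction run 3 held 2816 to 3294.1 of Mt2, against 856 to 1196 in runs 1 and 2, and in glomeruli 1880 and 2466, against 442 to 523. Run 3 had no medullary ROI. Its cortical ROIs also held more reads, 1105841 to 1872453, against 187967 to 510154 in runs 1 and 2, and the part of depth in this difference was not tested. Without run 3 the average HS difference was 0.73 for Mt2 and 0.59 for Mt1, and both stayed called (adjusted p = 5.88e-05 and 0.000152). In cortex it was 1.37 and 0.96 without run 3 and stayed called, but Mt2 lost its call at the junction (0.52, adjusted p = 0.275) and in glomeruli (0.50, adjusted p = 0.0856). The junctional call of Mt2 was near the threshold and was lost under 11 of 24 alternatives. In medulla Mt2 was called without Sham run 3 (1.37, adjusted p = 0.00176), the only Sham run that shared a plate with HS. Without that run plate E holds HS alone and the fit has no plate term, so that HS and plate cannot be told apart.

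**Figure D2:**
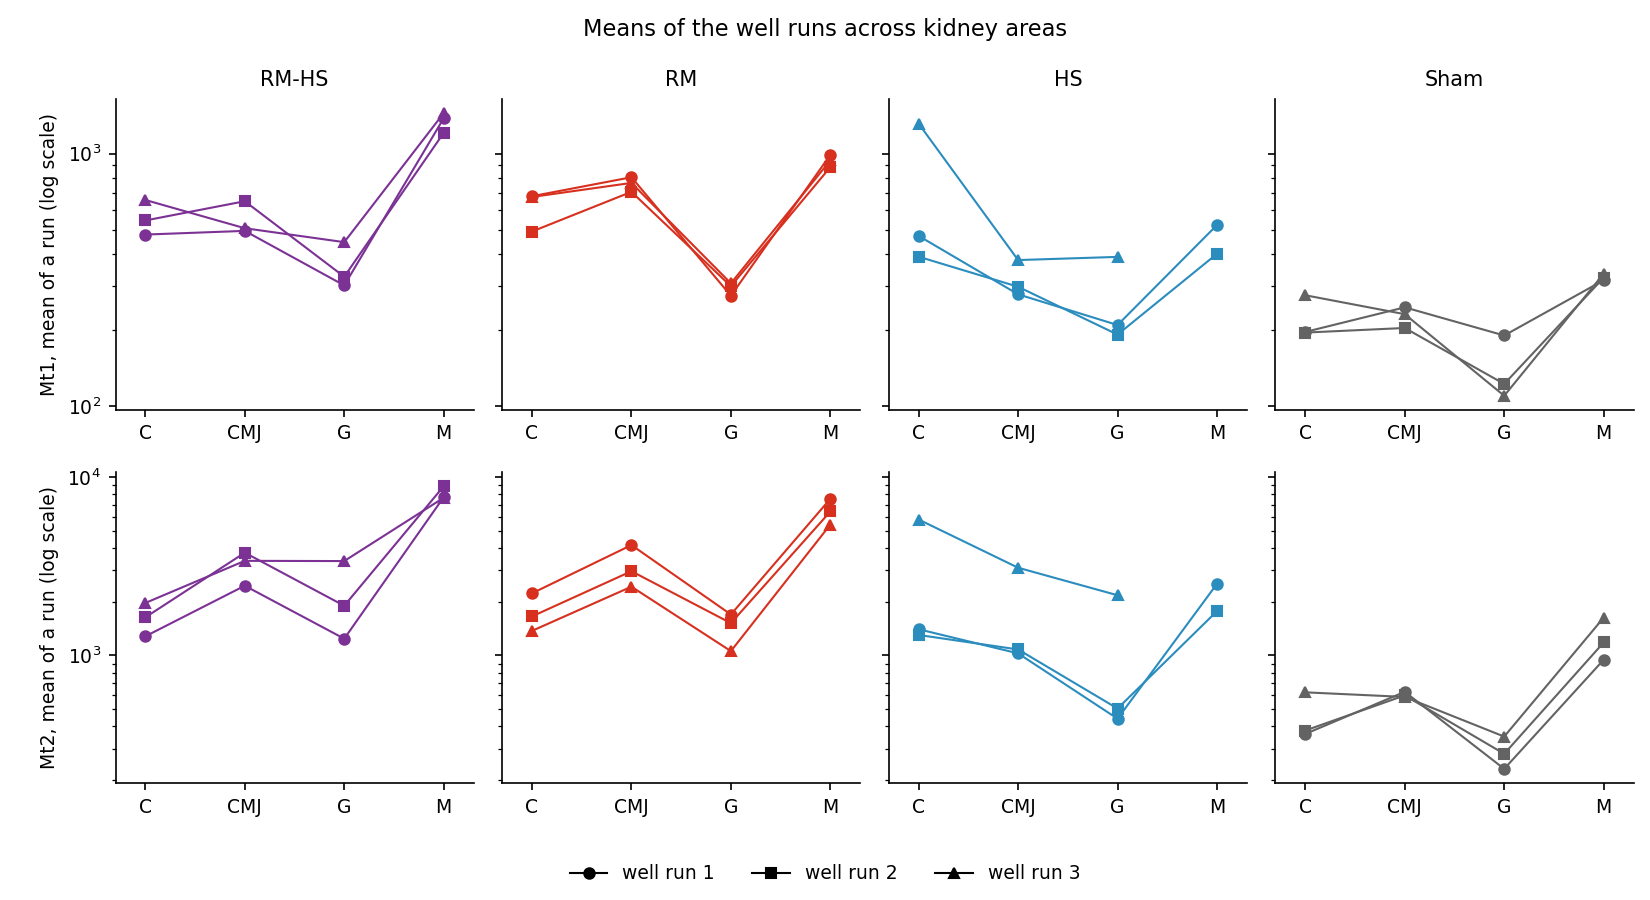
Mean signal of each well run in each kidney area (C, CMJ, G, M) for Mt1 (top) and Mt2 (bottom) on a log axis, with 1 panel per group and 1 line per run. HS run 3 lies above the other HS runs in cortex, at the junction and in glomeruli and has no medullary ROI, and the medulla is the highest area in every run that has all 4 areas.

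Run means showed which areas were highest. The medulla had the highest run mean in 3 of 3 RM-HS runs, 3 of 3 RM runs, 2 of 2 HS runs with a medulla and 3 of 3 Sham runs, for both genes. Glomeruli had the lowest run mean in all of these runs for Mt1, and in all but 2 RM-HS runs for Mt2. HS run 3 has no medulla and is not in this tally, and over all ROIs the mean was higher in HS cortex than in HS medulla for both genes (725 and 461 for Mt1, 2826 and 2145 for Mt2). Cortex lay above the junction in all 3 HS runs for both genes, whereas in Sham it did so in run 3 and not in runs 1 and 2. Whether the rise over Sham was equal in all areas was asked with an F test. It was called unequal after RM-HS for Mt1 (F = 6.54, adjusted p = 0.00886) and Mt2 (F = 6.89, adjusted p = 0.0064), where 7.51% of genes were called, and after HS for Mt1 (F = 9.68, adjusted p = 0.000571) and Mt2 (F = 7.97, adjusted p = 0.00241), where 13.6% were called. After RM it was not called for Mt1 (F = 3.09, adjusted p = 0.171) or Mt2 (F = 1.19, adjusted p = 0.7), with 9.72% of genes called. With 1 mean per run and area none of the called F tests stayed called (adjusted p = 0.683, 0.944, 0.224 and 0.432 in the same order), and without HS run 3 the HS test of Mt1 was not (adjusted p = 0.0674). Without RM-HS run 1 the RM-HS test of Mt1 was not called (F = 3.83, adjusted p = 0.124), nor was that of Mt2 without RM-HS run 3 (F = 5.10, adjusted p = 0.052), and without Sham run 3 the RM test of Mt1 was (F = 6.06, adjusted p = 0.0133).

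**Figure D3:**
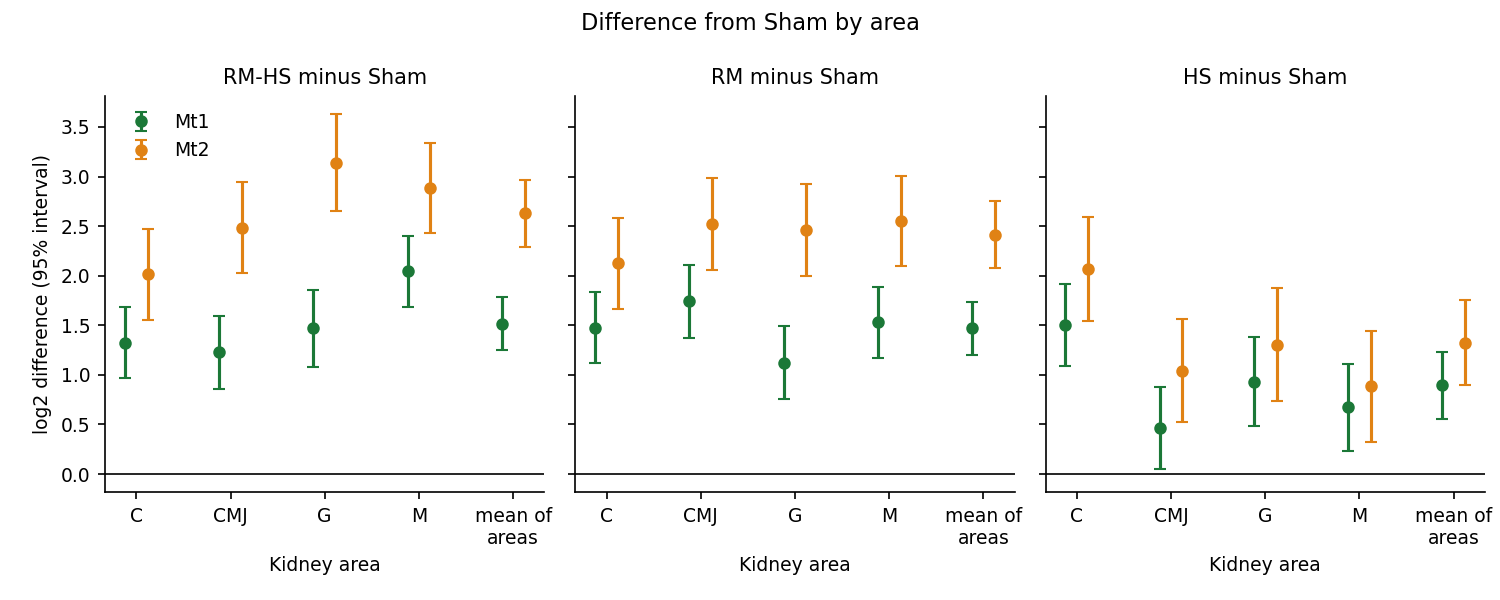
Log2 difference from Sham of Mt1 and Mt2 in each kidney area (C, CMJ, G, M) and as the mean of areas, for RM-HS, RM and HS. Points are limma estimates and bars their 95% intervals over ROIs. After RM-HS and RM all intervals lie above 0 and Mt2 lies above Mt1, and after HS the cortex has the highest point for both genes.

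RM-HS was then set against each single injury. Against RM, neither gene was called in the average or in any area, but some area values were called under other settings, given below. The average difference was 0.22 ± 0.15 for Mt2, with a 95% interval of -0.09 to 0.52, and 0.05 ± 0.12 for Mt1, with an interval of -0.19 to 0.29, and 0.227% of genes were called. Single areas lay between -0.11 and 0.68 for Mt2 and between -0.52 and 0.51 for Mt1, and the share of genes called was 0% for cortex, 0.408% for the junction, 1.89% for glomeruli and 0.589% for medulla. The outermost were Mt2 in glomeruli at 0.68 ± 0.24 (adjusted p = 0.106), Mt1 in medulla at 0.51 ± 0.17 (adjusted p = 0.273) and Mt1 at the junction at -0.52 ± 0.18 (adjusted p = 0.398). Without HS run 3 these values were all called, at 0.69, 0.51 and -0.51 (adjusted p = 0.00714, 0.0135 and 0.0345). No HS ROI is compared in them, but all ROIs of the fit share 1 estimate of spread. The same values were also called on plate C alone, which holds all RM-HS ROIs and no HS ROI, at 0.69, 0.51 and -0.51 (adjusted p = 0.00414, 0.00282 and 0.00717). Mt1 in medulla was also called in separate fits per area (0.51, adjusted p = 0.000219). Its ROIs ranged over 1128 to 1546 in RM-HS medulla and 806 to 1003 in RM medulla. Quantile normalization called both genes in glomeruli (0.63 for Mt1 and 0.72 for Mt2, adjusted p = 0.0409 and 0.0468). Of 24 alternatives, Mt1 in medulla and Mt2 in glomeruli were called in 3 each. Mt1 was called at the junction in 2 and in glomeruli in 1.

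Against HS, RM-HS held more Mt2 by 1.31 ± 0.28 averaged over areas (adjusted p = 0.00175), where 1.09% of genes were called. That call was lost without HS run 2 (0.95, adjusted p = 0.118) and without Sham run 1 (1.24, adjusted p = 0.064). Mt1 differed by 0.62 ± 0.22 and was not called (adjusted p = 0.204), but was without HS run 3 (0.93, adjusted p = 7.85e-08) and without Sham run 3 (0.61, adjusted p = 0.000131). By area, Mt2 was higher in RM-HS by 2.001 ± 0.33 in medulla, 1.84 ± 0.35 in glomeruli and 1.44 ± 0.32 at the junction (adjusted p = 5.61e-06, 0.000833 and 0.00232), with 1.98%, 2.95% and 1.3% of genes called. With 1 mean per run and area none of these Mt2 values was called (adjusted p = 0.165, 0.0857 and 0.736). Separate fits per area also lost the glomeruli (1.86, adjusted p = 0.131) and the junction (0.98, adjusted p = 0.864), leaving out ROIs under 50000 reads lost the glomeruli (1.14, adjusted p = 0.0713), and leaving out HS run 1 lost the junction (1.16, adjusted p = 0.0523). The ROIs under 50000 reads are the HS glomeruli of runs 1 and 2 and the Sham glomeruli of plate E. Mt1 was called in medulla, at 1.37 ± 0.26 (adjusted p = 0.00012), but not under quantile normalization (0.50, adjusted p = 0.22) or with 1 mean per run and area (1.41, adjusted p = 0.154). Mt1 was not called at the junction, at 0.76 ± 0.25, or in glomeruli, at 0.54 ± 0.27 (adjusted p = 0.142 and 0.284), but was called in both without HS run 3 (0.89 and 0.91) and without Sham run 3 (0.75 and 0.53). In cortex neither was called, at -0.05 ± 0.31 for Mt2 and -0.18 ± 0.25 for Mt1 (adjusted p = 0.999 each, with 0.464% of genes called). Without HS run 3 the cortical difference was 0.65 for Mt2, which was called (adjusted p = 0.0462), and 0.36 for Mt1. RM-HS and HS lay on different plates, and these values rest on the 12 Sham ROIs of plate E for the plate term. The values without Sham run 3 have no plate term, and in them injury and plate cannot be told apart. The plate term itself was 0.42 ± 0.23 for Mt2 and 0.01 ± 0.18 for Mt1 (adjusted p = 0.443 and 0.996).

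If the separate injuries added on the log2 scale, the interaction, RM-HS minus RM minus HS plus Sham, would be 0. In cortex it was -2.18 ± 0.34 for Mt2 and -1.65 ± 0.27 for Mt1 (adjusted p = 2.26e-05 and 3.95e-05), so that RM-HS cortex held less of both transcripts than the sum of the RM and HS differences. Only 6 genes, 0.068% of those tested, were called there, all below 0, and Mt2 was the lowest of all 8827. Without HS run 3 the cortical interaction was -1.48 for Mt2 and -1.11 for Mt1 and stayed called (adjusted p = 8.16e-05 and 0.00148), and with 1 mean per run and area neither was called (adjusted p = 0.9997 each). Separate limma fits per area also lost both cortical calls, at -1.97 for Mt2 and -1.34 for Mt1 (adjusted p = 0.807 and 0.911). At the junction it was -1.08 ± 0.35 and -0.98 ± 0.28, in glomeruli -0.62 ± 0.38 and -0.58 ± 0.30, and in medulla -0.55 ± 0.36 and -0.16 ± 0.28, for Mt2 and Mt1, none of which was called (0.181%, 7.58% and 0.34% of genes called). At the junction both were called without Sham run 3 (-1.33 and -1.004, adjusted p = 0.0203 and 0.019) and without the plate term (-1.35 and -0.99, adjusted p = 0.0146 and 0.0303), and Mt1 also without HS run 3 (-0.85, adjusted p = 0.0348). The fit without Sham run 3 also has no plate term, since plate E then holds HS alone. In glomeruli Mt2 was called without Sham run 3 (-1.04, adjusted p = 0.0304) and without ROIs under 50000 reads (-1.32, adjusted p = 0.0353). The latter setting keeps only the run 3 ROIs of HS glomeruli and no Sham glomeruli of plate E. Both genes were called without HS run 2 (-1.06 and -0.82, adjusted p = 0.0466 and 0.0489), and without HS run 3 Mt2 stood at 0.19 (adjusted p = 0.688). Averaged over areas Mt2 was at -1.11 ± 0.27 (adjusted p = 0.0494) and Mt1 at -0.84 ± 0.21 (adjusted p = 0.0654), with 0.125% of genes called. The Mt2 call was lost under 9 of 22 alternatives, without HS run 3 among them (-0.52, adjusted p = 0.0582), and without that run Mt1 was called (-0.54, adjusted p = 0.014).

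The ratio of Mt2 to Mt1 was higher in the injured groups. A ratio of the 2 probes does not give the ratio of the transcripts, since each probe binds with its own strength, so only its differences between groups are read. As means per well run over areas, each relative to the Sham mean of its area, log2 of Mt2 over Mt1 lay 0.95 above Sham in RM-HS (runs 0.73 to 1.08, against -0.32 to 0.28 in Sham), 0.80 above in RM (0.41 to 1.07) and 0.73 above in HS (0.36 to 1.39). Without HS run 3 the HS difference was 0.40. The ratios carry no plate term, and all HS runs lay on plate E with 1 Sham run. In the limma fit the plate term, E over C, was 0.42 ± 0.23 for Mt2 and 0.01 ± 0.18 for Mt1. In the HS ratio, here and by area below, injury and plate were not separated. In each injury all 3 runs lay above all 3 Sham runs, which gives p = 0.1 in a two-sided exact permutation test, the smallest p that 3 against 3 allows. Over single ROIs, which share animals, the two-sided exact permutation tests of 12 area comparisons gave adjusted p-values between 0.000247 and 0.145. The ratio was higher in RM-HS at the junction by 1.12 on the log2 scale (adjusted p = 0.000329), in glomeruli by 1.56 (adjusted p = 0.00266), in medulla by 0.70 (adjusted p = 0.00155) and in cortex by 0.55 (adjusted p = 0.000494). In RM it was higher in glomeruli by 1.23, in medulla by 0.88, at the junction by 0.67 and in cortex by 0.51, the highest adjusted p being 0.00898. In HS it was higher at the junction by 0.85 and in cortex by 0.84 (adjusted p = 0.000247 each), and the differences of 0.68 in glomeruli and 0.32 in medulla did not pass (adjusted p = 0.145 and 0.0915).

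**Figure D4:**
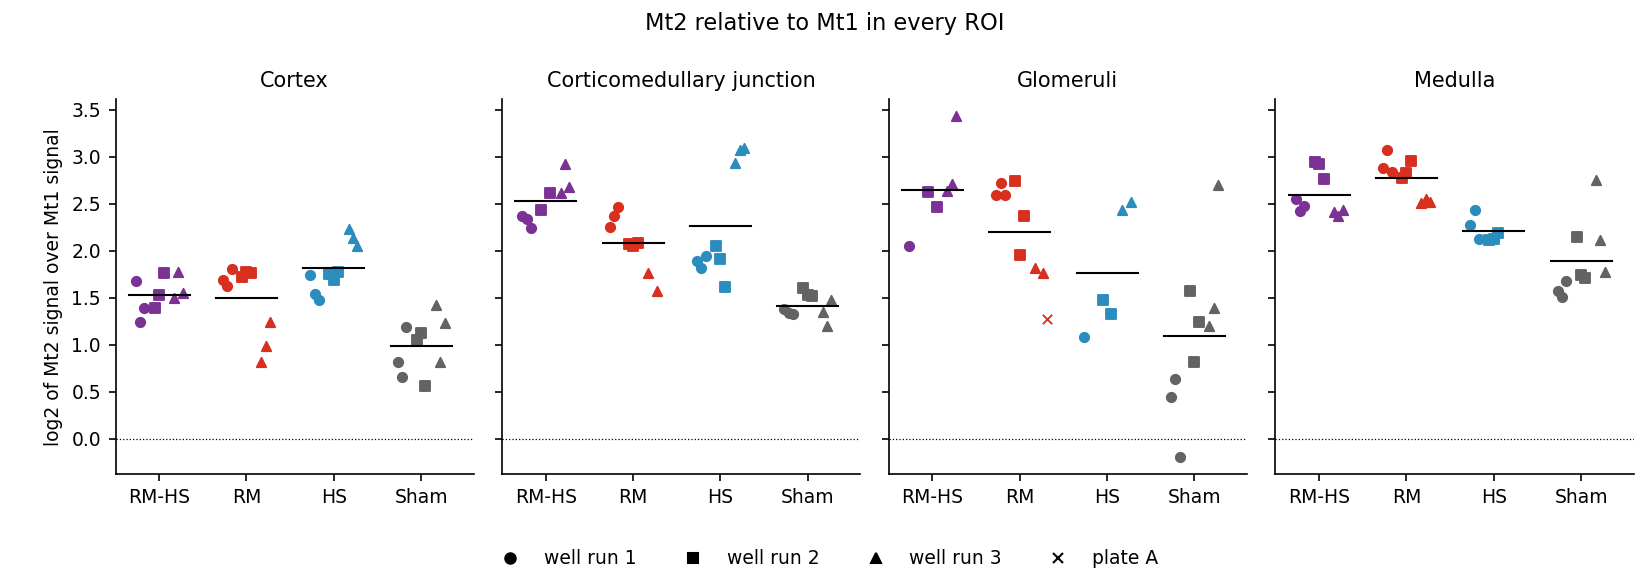
Log2 of the Mt2 signal over the Mt1 signal in every ROI, by kidney area and group, with the well run as symbol and the group mean as a black line. At the junction all RM-HS and HS points lie above the Sham points, and in glomeruli the Sham points spread from -0.19 to 2.70.

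Mt2 was among the brightest probes of the medulla, most so after RM-HS and RM. Its rank by signal among the 9271 genes of an ROI had a median of 2 in RM-HS medulla and 2 in RM medulla. The median was 4.5 in HS medulla and 10 in Sham medulla. Mt2 was the brightest of all in at least 1 medullary ROI of RM-HS and of RM. In glomeruli the median rank was 3 in RM-HS, 6 in RM and 13.5 in HS, against 43 in Sham, and in cortex 8 in RM-HS, 8 in RM and 5 in HS, against 22 in Sham. Mt1 and Mt2 together took a median of 1.59% of all signal in RM-HS medulla, 1.29% in RM medulla and 0.502% in HS medulla, against 0.268% in Sham medulla. Ordered by mean signal over the 16 groups and areas, Mt2 stood at 8074 ± 892 (SD, n = 9) in RM-HS medulla, 6453 ± 1076 (n = 9) in RM medulla and 3276 ± 817 (n = 8) at the RM junction. From there down to Sham glomeruli, at 288 ± 66.6 (n = 9), no mean exceeded the next by more than the larger SD of the pair. For Mt1 the order began with RM-HS medulla at 1343 ± 146 and RM medulla at 937 ± 60.5 (n = 9 each), and beyond the RM junction, at 758 ± 73.9 (n = 8), only Sham cortex over Sham glomeruli exceeded that mark, at 222 ± 53.9 against 141 ± 49.5 (n = 9 each).

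The pair moved together across conditions and less so within them. Over the 16 means of group and area, Mt1 and Mt2 had r = 0.942, and each was the nearest gene to the other among all tested. Among ROIs around their group and area means, r was 0.710 in RM-HS (32 ROIs), 0.323 in RM (35) and 0.912 in HS (29), against 0.103 in Sham (36). ROIs of a run lie near each other on a plate and are not independent. HS run 3 lies above the other HS runs in cortex, at the junction and in glomeruli, so these values are descriptions. Next to Mt2, the genes most like Mt1 over the 16 means were Igfbp1, a secreted binding protein of insulin-like growth factors (r = 0.920), Sat1, the rate-limiting enzyme of polyamine breakdown (r = 0.914), the splicing factor gene Srsf2 (0.894), Ostf1 (0.890) and the RNA silencing gene Ago2 (0.881). Most like Mt2 were Sat1 (0.905), Srsf2 (0.905), Igfbp1 (0.891), Midn (0.882) and Rbm3, which encodes a cold-inducible RNA-binding protein (0.874). Averaged over areas, Sat1 rose by 2.47 ± 0.17 in RM-HS, 2.02 ± 0.17 in RM and 1.09 ± 0.22 in HS, and Igfbp1 by 2.12 ± 0.20, 1.47 ± 0.20 and 1.52 ± 0.26 in the same order (adjusted p at most 0.00276 in limma).

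Other metal-handling genes were then examined. Mt4, a family member best known from stratified epithelium, stayed near background, at a median of 1.55 times the negative probe over all ROIs, and was not called in RM-HS, RM or HS (-0.07 ± 0.15, -0.20 ± 0.15 and -0.28 ± 0.19, with adjusted p of 0.89, 0.464 and 0.983). Of 9 zinc genes tested, among them Mtf1, which encodes the zinc sensor, 1 rose in RM-HS, 1 in RM and 0 in HS, and none fell, where 6.83%, 8.3% and 0.17% of all genes were called. The list medians were 0.01, 0.02 and 0.11, against -0.02, -0.06 and -0.03 for all genes. It was Slc39a14, a zinc and iron importer of the plasma membrane, in both: 0.48 ± 0.13 in RM-HS and 0.50 ± 0.13 in RM (adjusted p = 0.00845 and 0.00459). In HS the members with the lowest p were Slc30a7, at 0.36 ± 0.16 (adjusted p = 0.854), and Slc39a3, at -0.29 ± 0.22 (adjusted p = 0.999). Of 9 copper genes tested, 2 rose in RM-HS, 1 in RM and 0 in HS, and none fell (list medians 0.05, 0.02 and 0.01), beside the same 6.83%, 8.3% and 0.17% of all genes called. With 9 genes a list, 1 or 2 called members do not set either list apart. Sod1, the copper and zinc superoxide dismutase, rose by 0.75 ± 0.18 in RM-HS and 1.07 ± 0.18 in RM (adjusted p = 0.00147 and 6.80e-07), and Cox17, a copper chaperone of mitochondria, by 0.39 ± 0.13 in RM-HS (adjusted p = 0.0399). In HS, Slc31a2 stood at 0.46 ± 0.15 and Steap3 at 0.17 ± 0.17 (adjusted p = 0.434 and 0.999).

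Genes of other known inducers of metallothionein were called in each injury, and whether they differed between injuries or act on Mt1 and Mt2 here was not tested. The HS calls come from the same fit as those of Mt1 and Mt2. Whether they hold on plate E alone or without HS run 3 was not examined. Of 7 genes of the glucocorticoid list tested (the receptor gene Nr3c1 and known targets), 4 rose in RM-HS, 2 in RM and 3 in HS, and none fell (list medians 0.50, 0.22 and 0.58), beside 6.83%, 8.3% and 0.17% of all genes called. Tsc22d3, the glucocorticoid-induced leucine zipper, rose by 1.51 ± 0.21 in HS (adjusted p = 3.53e-07) and was not called in RM-HS or RM. Zbtb16 rose by 0.54 ± 0.14 in RM-HS and 0.83 ± 0.18 in HS (adjusted p = 0.00669 and 0.00875). Dusp1, a phosphatase of MAP kinases, rose in all of them, by 0.56 ± 0.13 in RM-HS, 0.58 ± 0.13 in RM and 0.80 ± 0.17 in HS (adjusted p = 0.00136, 0.000536 and 0.00551). Cebpd rose by 0.76 ± 0.13 in RM-HS and 0.67 ± 0.13 in RM, and Klf9 by 0.50 ± 0.15 in RM-HS (adjusted p = 3.11e-06, 2.59e-05 and 0.0267). Of 3 genes of interleukin 6 and STAT3 signalling tested, 2 rose in RM-HS, 2 in RM and 0 in HS, beside the same shares of all genes. They were Stat3, the transcription factor itself, by 1.08 ± 0.14 in RM-HS and 1.26 ± 0.14 in RM (adjusted p = 1.23e-10 and 5.80e-14), and Socs3, its feedback inhibitor, by 0.95 ± 0.16 and 1.02 ± 0.16 (adjusted p = 3.28e-06 and 2.29e-07). In HS, Socs3 stood at -0.36 ± 0.21 and Stat3 at 0.09 ± 0.17 (adjusted p = 0.95 and 0.999).

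Cell type markers were called in RM-HS and RM, none by more than 0.70 on the log2 scale. Of all genes, 6.83% were called in RM-HS, 8.3% in RM and 0.17% in HS. Of 4 macrophage markers tested, Cd74 and C1qc rose in RM-HS (0.69 ± 0.20 and 0.47 ± 0.14, adjusted p = 0.0165 and 0.0149), Cd74 rose in RM (0.70 ± 0.20, adjusted p = 0.0104) and 0 changed in HS. The summed signal of the macrophage markers ranged over 148 to 346 in RM-HS, 110.5 to 346 in RM and 69.8 to 316 in HS, against 96.9 to 269 in Sham. Among tubule markers, Slc12a1 of the thick ascending limb fell by 0.68 in RM (adjusted p = 0.00711), Aqp2 of the collecting duct fell by 0.61 in RM-HS and by 0.61 in RM (adjusted p = 0.0498 and 0.043) and Slc3a1 of the straight proximal tubule rose by 0.57 in RM (adjusted p = 0.0283). Slc12a1 and Aqp2 were each the only marker called of 3 tested in their list. Slc3a1 was the only one called of 3 straight proximal tubule markers, whose median in RM was -0.03, so that the other members lay at or below that value. Vim of fibroblasts and mesangium rose by 0.45 in RM-HS and 0.58 in RM (adjusted p = 0.0312 and 0.00153), and Flt1 of endothelium by 0.60 in RM (adjusted p = 0.000644). Vim was the only one called of 3 markers tested, and Flt1 the only one of 2. None of 5 podocyte markers, 3 convoluted proximal tubule markers, 1 neutrophil marker or 1 red cell marker tested was called in any injury, and no marker was called in HS. With so few genes called in HS, the lack of a called marker there does not show that cell types stayed the same. The part of these shifts in the metallothionein values was not tested.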

How the data were processed

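The deposited table holds normalized signal of 9271 genes and the negative probe in 132 ROIs. The authors scaled each ROI to a common upper quartile, per the values, which came out as whole reads times 1 factor per ROI (largest deviation 1.09e-10). Tissue was profiled with mouse probes and sequenced on an Illumina instrument, per the labels' protocols. The submitters' processing notes name the human builds GRCh38 and hg38 without their role, and no aligner is named there. Groups and areas came from sample titles.

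Genes had to exceed the negative probe by 2 times in 10% of ROIs or more, which left 8827. Their log2(signal + 1) was fitted with limma 3.58.1 (statmod 1.5.0, R 4.3.3) over 131 ROIs, with group by area, a plate term and the well run as random block (consensus correlation 0.132). The single plate A ROI was left out of the fit. A p-value was adjusted over all 8827 genes by Benjamini-Hochberg and called under 0.05. Well runs were read from plate positions, and no label equates a run with an animal. Ratios were tested with exact permutation tests (Python 3.11.15, scipy 1.17.1), adjusted over 12 area tests. The fit was tested on simulated data.

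Named beside Mt1 and Mt2 are the 5 genes with the highest Pearson r to each over 16 means, and from each list up to 4 called members per injury by size, or with none called the 2 with the lowest p. Cell type markers called in any injury are also named. Members and lists were chosen with earlier results of these data known.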

Additional observations from a re-analysis of the deposited data

Results flagged for a closer look

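A single ROI stood far from the rest in 3 of 48 sets of values examined, each 1 measure in 1 group and area. Chance alone sets such an ROI apart in about 1 set in 20. Mt1 was 743 in 1 RM-HS junctional ROI, 348 in 1 Sham cortical ROI and Mt2 was 2316 in 1 Sham medullary ROI. Both Sham ROIs belong to run 3 on plate E, the Sham run that shares a plate with HS.

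The difference from Sham was unequal between areas in the F test after RM-HS, with adjusted p = 0.00886 for Mt1 and 0.0064 for Mt2 in limma, and after HS, with 0.000571 for Mt1 and 0.00241 for Mt2. The interaction of RM and HS was below 0 for Mt2 averaged over areas (-1.11), and in cortex for Mt2 (-2.18) and Mt1 (-1.65). Both cortical calls were lost with 1 mean per run and area and in separate fits per area. HS run 3, whose cortical ROIs were the highest of HS, enters each HS value and each interaction.

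The RM glomerular ROI on plate A, which the fit left out, held 246 of Mt1 and 594 of Mt2, both above the highest Sham glomerular ROI (233 and 407).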

How the results depend on the processing

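Of 1855 values under alternatives, 1699 kept their direction and their side of the threshold, and all RM-HS and RM differences from Sham stayed called. The planned count tests on recovered reads were not run, because the unit check did not accept recovered reads for most ROIs. Scaling to the total signal was chosen after seeing the data. No paired analysis was possible because replicate numbers were given in accession order. The cause of each change below was not tested.

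For HS minus Sham, plate E alone gave 0.90 for Mt1 and 1.34 for Mt2 averaged over areas, 1.19 and 1.86 in cortex, 1.36 for Mt2 at the junction and 1.27 for Mt2 in glomeruli, none called. With 1 mean per run and area it was 0.88 and 1.28, in cortex 1.502 and 2.07, at the junction 1.04 for Mt2 and in glomeruli 0.91 and 1.20, none called. Separate fits per area lost 1.19 and 1.86 in cortex, 1.36 (Mt2, junction) and 1.34 (Mt2, glomeruli) and called 0.45 for Mt1 in medulla. Without ROIs under 50000 reads Mt1 in glomeruli was 0.79 and not called. In medulla quantile normalization called 0.95 for Mt1 and 0.87 for Mt2, and no plate term called 1.18 for Mt2. Leaving out runs gave Mt2 0.52 to 1.32 at the junction, 0.50 to 1.74 in glomeruli and 0.54 to 1.37 in medulla.

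For RM-HS minus RM, uncalled values changed sign: 0.0011 for Mt1 in cortex under quantile normalization and 0.012 for Mt2 at the junction with 1 mean per run. Leaving out runs gave -0.036 to 0.10 for Mt1 averaged over areas, and for Mt2 -0.27 to 0.075 in cortex and -0.19 to 0.19 at the junction. For RM-HS minus HS averaged over areas, Mt1 was called without the plate term (0.62) or the block (0.67), and Mt2 was not with 1 mean per run (1.31). Signs changed in cortex in separate fits (0.29 for Mt1, 0.26 for Mt2), without shallow ROIs (0.013 for Mt1), and in glomeruli in separate fits (-0.035 for Mt1). Leaving out runs gave 0.41 to 0.93 for Mt1 and 0.89 to 1.90 for Mt2 averaged over areas, and -0.51 to 0.36 and -0.47 to 0.65 in cortex.

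The averaged interaction of Mt1 was called without the plate term (-0.85), without the block (-0.80), under quantile normalization (-0.81) and with the negative probe subtracted (-0.97). That of Mt2 was not called with 1 mean per run (-1.09) or scaled to total signal (-1.10). Mt1 in medulla changed sign without the block (0.023) and in separate fits (0.067). Leaving out runs gave -1.06 to -0.54 for Mt1 and -1.53 to -0.52 for Mt2 averaged over areas, -1.12 to 0.19 for Mt2 in glomeruli and -0.40 to 0.023 for Mt1 in medulla.

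In Sham, junction minus cortex of Mt1 was -0.54 under quantile normalization (called), -0.23 on plate E and -0.054 scaled to total signal. For Mt2 it was -0.15 under quantile normalization and -0.042 on plate E, and was called at 0.48 with the 50% filter, 0.48 without shallow ROIs and 0.75 on plate C. Calls were lost for glomeruli minus cortex of Mt2 on plate E (-0.80) and with 1 mean per run (-0.61), for medulla minus cortex of Mt1 under quantile normalization (0.15), on plate E (0.31) and with 1 mean per run (0.57), for medulla minus junction on plate E (0.53, Mt1) and with 1 mean per run (0.52 for Mt1, 0.99 for Mt2), and for glomeruli minus junction under quantile normalization (-0.21 and -0.35) and on plate E (-0.76, Mt2). Leaving out runs gave -0.079 to 0.20 for Mt1 and 0.33 to 0.75 for Mt2 (junction minus cortex), -1.04 to -0.37 and -0.72 to -0.51 (glomeruli minus cortex), and for Mt1 0.49 to 0.70 (medulla minus cortex) and 0.44 to 0.60 (medulla minus junction).

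The F test after RM-HS was not called without the block (4.80 for Mt1, 4.25 for Mt2), with 1 mean per run (2.28 and 1.47) or, for Mt1, with the negative probe subtracted (4.03). After RM it was called for Mt1 on plate C (9.19) and without shallow ROIs (6.82), and for Mt2 under quantile normalization (6.16). After HS it was not called on plate E (2.53 and 1.68) or with 1 mean per run (3.47 and 2.19). Leaving out runs gave 3.83 to 8.84 for Mt1 and 4.97 to 11.5 for Mt2 after RM-HS, 1.49 to 6.06 for Mt1 after RM and 3.80 to 12.8 for Mt1 after HS. Of the 5 genes most like each member, 3 (Mt1) and 2 (Mt2) were shared under Spearman correlation, and 2 and 1 over the 12 run means.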
